A study of Homo sapiens with 12 samples.

Results

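The 46 genes described here are lysosomal genes, taken from a list of lysosomal membrane proteins, proteases, hydrolases, subunits of the vacuolar proton pump and members of the TFEB family with their autophagy partners. They were found by symbol among the 58735 genes that both deposited tables list. RNA-seq was made from 12 libraries of human breast cancer cells in 4 groups of 3. The groups were SK-BR-3 cells, an established HER2-amplified breast cancer line, SK/EPI cells, an epirubicin-resistant line that was raised from SK-BR-3 by stepwise exposure to the drug, and SK/EPI cells transfected for 48 h either with a control siRNA (SK/EPI-siControl) or with one that targets BCRP (SK/EPI-siBCRP). All SK/EPI groups thus carry the resistance background, both siRNA groups were transfected with Lipofectamine RNAiMax, and the resistant cells are 1 derived line. BCRP is the drug efflux transporter encoded by ABCG2. The question was whether a fall of LAMP1 mRNA after siBCRP was shared by other lysosomal genes.

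Lysosomes are acidic organelles in which proteases, glycosidases and lipases break down material delivered by endocytosis and autophagy. The V-ATPase pumps protons into the lumen, and heavily glycosylated membrane proteins, of which LAMP1 and LAMP2 are the most abundant, line the inner face of the membrane. Many lysosomal genes carry the motif CACGTG near their start sites, which TFEB, TFE3 and MITF bind to raise their transcription. Anthracyclines such as epirubicin are weak bases that collect in acidic compartments.

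The siRNA used for RNA-seq is named siBCRP #1 in the study's supplement. Its strands are printed 5′ to 3′ with bases 2 to 8, the seed of a strand that guides silencing, in capitals. The ABCG2 site and the LAMP1 stretch discussed later are printed as the mRNA strand with the complement of the lower strand's bases 2 to 8 in capitals. They are shown because the lower strand pairs with ABCG2 and part of it with LAMP1.
siBCRP #1 upper strand: gGGAUACUuugaaucagcugguuau
siBCRP #1 lower strand: aUAACCAGcugauucaaaguauccc
ABCG2 site: gggatactttgaatcagCTGGTTAt
LAMP1 stretch: gttaaatattttgctaaCTGGTTAa
The ABCG2 site spans positions 1368 to 1392 of transcript ENST00000237612.7, in the coding sequence and across an exon junction, and all 25 bases pair with the lower strand. The LAMP1 stretch lies in the 3′ UTR, at positions 1643 to 1667 of ENST00000332556.4 (GRCh38, chr13:113322616-113322640, plus strand), and 13 of its 25 bases pair when the strands are aligned without gaps.

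The promoters of LAMP1 and of MCOLN1, the lysosomal calcium channel, are printed from RefSeq (GRCh38.p14), from 250 bases before to 30 bases after the start site, with CACGTG in capitals. They are shown because they hold the motif that the TFEB family recognises and because both genes moved in both comparisons. The LAMP1 window is chr13:113296989-113297268 and the MCOLN1 window chr19:7522374-7522653, both on the plus strand.
LAMP1 promoter: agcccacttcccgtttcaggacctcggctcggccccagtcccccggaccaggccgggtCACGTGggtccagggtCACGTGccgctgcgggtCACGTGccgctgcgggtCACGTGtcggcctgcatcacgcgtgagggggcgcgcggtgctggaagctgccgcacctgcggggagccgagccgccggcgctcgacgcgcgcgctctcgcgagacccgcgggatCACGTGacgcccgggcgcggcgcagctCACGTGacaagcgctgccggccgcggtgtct
MCOLN1 promoter: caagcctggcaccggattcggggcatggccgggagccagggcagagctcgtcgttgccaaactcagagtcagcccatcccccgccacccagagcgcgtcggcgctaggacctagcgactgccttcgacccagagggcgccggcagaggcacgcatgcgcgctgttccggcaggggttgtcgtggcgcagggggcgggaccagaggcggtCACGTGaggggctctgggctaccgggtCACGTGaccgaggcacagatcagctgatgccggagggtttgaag
The LAMP1 window holds 6 copies and the MCOLN1 window 2.

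Libraries held between 15830381 and 20545811 reads on genes. Levels are given as FPKM, which divides the fragments of a gene by its exon length and by the depth of the library, so that genes of different length can be set side by side. Of 7 epithelial markers, ERBB2, KRT8, KRT18, KRT19, EPCAM and GRB7 had group means between 44.3 and 1651 FPKM, and CDH1 did not exceed 0.0736 FPKM. Of 8 leukocyte markers, the defining PTPRC did not exceed 0.0503 FPKM as a group mean, and MS4A1 and TYROBP were at 0. CD14 had group means from 0.513 to 27.4 FPKM and CSF1R from 2.81 to 6.90 FPKM, and the other 3 did not exceed 0.790 FPKM. Their summed level was between 4.87 and 5.05 FPKM in SK-BR-3 and between 32.4 and 34.4 in SK/EPI libraries, and it was between 14.6 and 16.7 in both siRNA groups. The part of these markers in the results was not tested. Of 6 fibroblast markers, 5 were under 1 FPKM in all libraries. ABCG2, the silenced gene, was at 32.5, 32.7 and 33.7 FPKM in SK/EPI-siControl and at 2.84, 3.47 and 2.91 FPKM in SK/EPI-siBCRP libraries, so the silenced libraries were all lower. In SK-BR-3 libraries ABCG2 had only 2 to 6 reads. In bulk RNA, fewer cells that express a gene and less mRNA per cell cannot be told apart.

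After BCRP silencing, the large fall was that of LAMP1, and the other lysosomal genes moved little and in both directions. LAMP1 (ENSG00000185896, chr13:113297241-113323672, plus strand) was at 82.7, 80.2 and 81.1 FPKM in SK/EPI-siControl and at 14.1, 14.2 and 13.6 FPKM in SK/EPI-siBCRP libraries. The groups were far apart, with a mean of 81.3 ± 1.27 against 13.9 ± 0.322 FPKM (SD, n = 3 each). The log2 fold change on log2(FPKM + 1) was -2.46 (SE 0.025, adjusted p = 2.5e-08, limma, adjusted over all tested genes by the Benjamini-Hochberg method), a 5.84-fold lower mean level. Among the 46 members LAMP1 went from rank 5 by level in SK/EPI-siControl to rank 20 in SK/EPI-siBCRP cells.

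All 46 members passed the filter on low genes in the siRNA comparison. An adjusted p-value under 0.05 was found for 15 members that rose, which is 32.6% of them, where 19.4% of the 16298 genes tested rose. It was found for 13 members that fell, or 28.3%, where 18.7% of all tested genes fell. The other 18 members did not pass. The same shares of all tested genes stand beside the counts of the smaller groups below. The libraries of the 2 groups did not overlap for 35 of the 46 members, and for 8297 of the 16298 genes tested. The members' level was above that of a typical tested gene, with a median of 1526 against 363 reads per library, and the part of this depth in the larger share of calls was not tested. The median log2 fold change was 0.024 over the members and 0.047 without LAMP1, beside -0.0036 over all tested genes. Without LAMP1 the members lay between -0.55 and 0.57, and no other member changed by 1 or more on the log2 scale. The fall of LAMP1 was thus not shared in size by any other member, and 12 of the other 45 fell by smaller amounts.

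**Figure D1:**
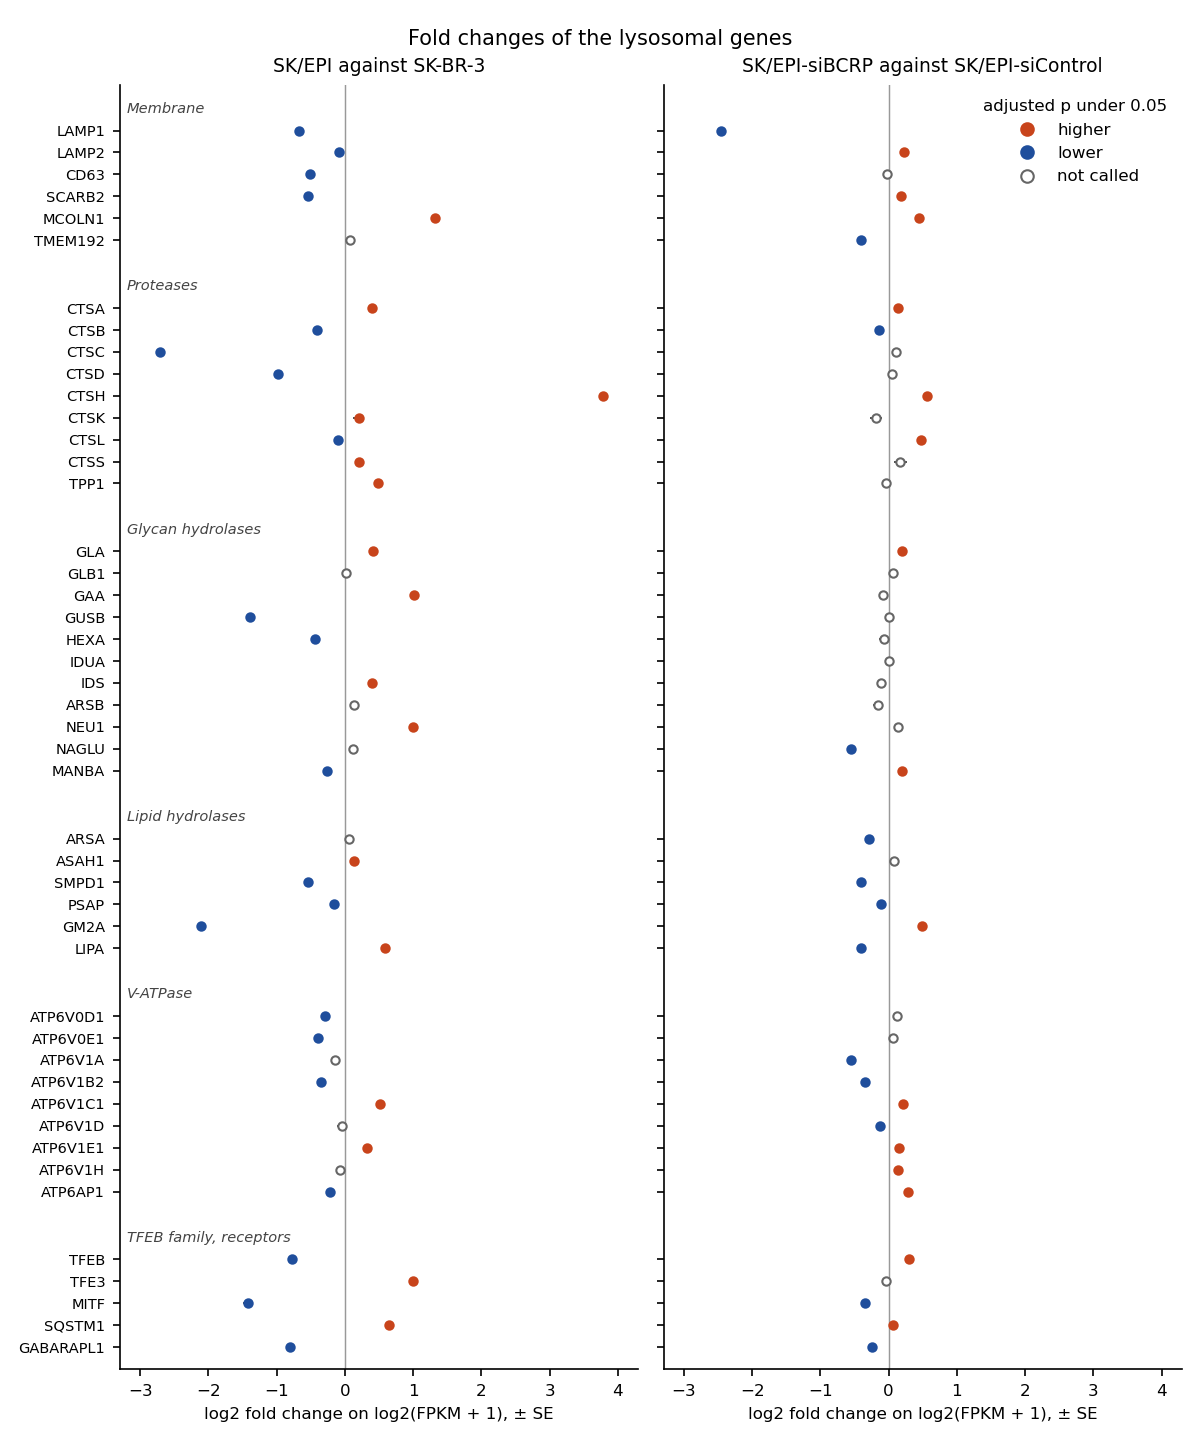
Log2 fold change on log2(FPKM + 1) with its standard error for each of the lysosomal genes, grouped by role, in SK/EPI against SK-BR-3 (left) and in SK/EPI-siBCRP against SK/EPI-siControl (right). Filled points passed an adjusted p of 0.05 (red higher, blue lower) and open points did not. LAMP1 stands alone at -2.46 on the right, where the other members lie between -0.55 and 0.57. IDUA was not tested on the left.

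Among the 6 membrane genes, 3 rose, 2 fell and 1 did not pass after silencing. LAMP2, the closest relative of LAMP1 (ENSG00000005893, chrX:120427827-120469365, minus strand), was at 29.6, 30.6 and 31.3 FPKM in SK/EPI-siControl and at 36.0, 35.7 and 36.1 FPKM in SK/EPI-siBCRP libraries. It rose without overlap between the groups, with a log2 fold change of 0.23 (SE 0.025, adjusted p = 0.00043, limma). MCOLN1 (chr19:7522626-7534009, plus strand) rose from 11.1, 11.3 and 10.05 to 15.3, 15.0 and 14.8 FPKM, a log2 fold change of 0.44 (SE 0.044, adjusted p = 0.00027, limma). All 3 silenced libraries lay above the controls for both genes. SCARB2, the receptor that carries glucocerebrosidase to lysosomes, rose with a log2 fold change of 0.17 (adjusted p = 0.0039, limma). CD63, a tetraspanin of late endosomes and exosomes, was at 100.1 ± 3.60 and 98.6 ± 2.05 FPKM (SD, n = 3), and the 95% interval of its log2 fold change ran from -0.094 to 0.052 (adjusted p = 0.63, limma). TMEM192, a lysosomal membrane protein used to tag the organelle (chr4:165070608-165208549, minus strand), was the other member of this group that fell. It was at 4.08, 3.93 and 3.79 FPKM in SK/EPI-siControl and at 2.69, 2.77 and 2.74 FPKM in SK/EPI-siBCRP libraries, a log2 fold change of -0.40 (SE 0.047, adjusted p = 0.00058, limma).

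Of the 9 proteases, 3 rose, 1 fell and 5 did not pass after silencing. CTSH, a cysteine aminopeptidase (chr15:78921058-78949574, minus strand), was at 33.6, 32.2 and 31.0 FPKM in SK/EPI-siControl and at 47.9, 48.3 and 48.8 FPKM in SK/EPI-siBCRP libraries. On log2(FPKM + 1) this was the largest rise of the 46 members, with a log2 fold change of 0.57 (SE 0.031, adjusted p = 1.8e-05, limma). By mean level CTSH rose 1.496-fold, and TFEB, a gene of low level, rose 1.523-fold. CTSL, a cysteine endopeptidase, was at 30.2, 26.9 and 27.6 against 38.8, 39.0 and 41.4 FPKM, and rose by 0.48 (SE 0.046, adjusted p = 0.00023, limma). The annotation holds 6 pseudogene copies named after CTSL, with which reads could have been shared. CTSA, which protects NEU1 and GLB1 in a complex, rose with a log2 fold change of 0.13 (adjusted p = 0.0022, limma). CTSD, the abundant aspartic protease, was at 134.8 ± 1.05 and 139.2 ± 2.08 FPKM (SD, n = 3) and did not pass (adjusted p = 0.11, limma).

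The 17 hydrolases and their cofactors held 3 that rose, 5 that fell and 9 that did not pass. GM2A, the activator protein for GM2 ganglioside breakdown, was at 15.0, 14.4 and 15.4 FPKM in SK/EPI-siControl and at 21.2, 20.6 and 22.2 FPKM in SK/EPI-siBCRP libraries. It rose by 0.49 on the log2 scale (SE 0.036, adjusted p = 7e-05, limma), with GLA and MANBA by 0.19 each. NAGLU, which cleaves heparan sulfate (chr17:42536172-42544449, plus strand), fell from 6.68, 6.73 and 6.59 to 4.31, 4.07 and 4.34 FPKM. Its log2 fold change of -0.55 (SE 0.040, adjusted p = 6.4e-05, limma) was the largest fall after LAMP1, with ATP6V1A close beside it. NAGLU shares 12.6% of its exonic bases with AC067852.1 on the same strand. The remaining falls of this group were all among the genes of lipid breakdown. SMPD1, acid sphingomyelinase, was at 9.48, 9.89 and 9.22 against 7.12, 7.40 and 6.34 FPKM, a log2 fold change of -0.41 (SE 0.056, adjusted p = 0.0013, limma). LIPA, the acid lipase, was at 16.3, 16.9 and 15.6 against 11.78, 12.02 and 12.39 FPKM, a log2 fold change of -0.40 (SE 0.036, adjusted p = 0.00016, limma). ARSA, which removes sulfate from sulfatide, and PSAP, the precursor of the saposins, had log2 fold changes of -0.28 and -0.11. Of the 6 lipid genes 4 fell, GM2A rose and ASAH1 did not pass, where 18.7% of all tested genes fell. The call of PSAP was lost without SK/EPI-siBCRP replicate 2 or SK/EPI-siControl replicate 2.

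The 9 subunits of the V-ATPase did not move together after silencing, since 4 rose, 3 fell and 2 did not pass. ATP6V1A, the catalytic A subunit (chr3:113747019-113812056, plus strand), was at 7.87, 8.30 and 8.19 FPKM in SK/EPI-siControl and at 5.27, 5.05 and 5.41 FPKM in SK/EPI-siBCRP libraries. The silenced libraries were all lower, with a log2 fold change of -0.55 (SE 0.040, adjusted p = 6.4e-05, limma). ATP6V1B2, its B subunit partner in the catalytic head, also fell, by 0.35 on the log2 scale (adjusted p = 0.00025, limma). ATP6AP1, an accessory subunit needed for assembly, rose from 61.9, 61.4 and 60.9 to 77.3, 73.5 and 73.1 FPKM, a log2 fold change of 0.28 (SE 0.026, adjusted p = 2e-04, limma). ATP6V1C1, ATP6V1E1 and ATP6V1H, which belong to the peripheral stalks and regulatory part, rose by 0.22, 0.15 and 0.14. The rise of ATP6V1H did not pass without SK/EPI-siBCRP replicate 2 or 3 or SK/EPI-siControl replicate 1 or 3, and lay between 0.12 and 0.17 over the libraries left out in turn.

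Of the TFEB family, TFEB rose, MITF fell and TFE3 did not pass after silencing. TFEB was at 0.792, 0.642 and 0.914 FPKM in SK/EPI-siControl and at 1.11, 1.22 and 1.25 FPKM in SK/EPI-siBCRP libraries, a log2 fold change of 0.30 (SE 0.068, adjusted p = 0.012, limma). MITF was at 1.54, 1.48 and 1.51 against 1.07, 0.959 and 0.900 FPKM, a log2 fold change of -0.35 (SE 0.054, adjusted p = 0.0022, limma). The groups did not overlap for either gene. With 0.1 added to the FPKM in place of 1, the log2 fold changes were 0.56 for TFEB and -0.58 for MITF. TFE3, the most abundant of the 3, was at 11.4, 11.8 and 12.2 against 11.9, 10.6 and 11.7 FPKM, with overlapping groups (adjusted p = 0.5, limma). Of their autophagy partners, the LC3 relative GABARAPL1 fell by 0.24 on the log2 scale (adjusted p = 0.0021, limma), and SQSTM1, the cargo receptor p62, rose by 0.067 (adjusted p = 0.048, limma). The rise of SQSTM1 did not pass without SK/EPI-siBCRP replicate 1 or 3 or without any 1 of the 3 SK/EPI-siControl libraries, and the log2 fold change lay between 0.051 and 0.083 over the libraries left out in turn.

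**Figure D2:**
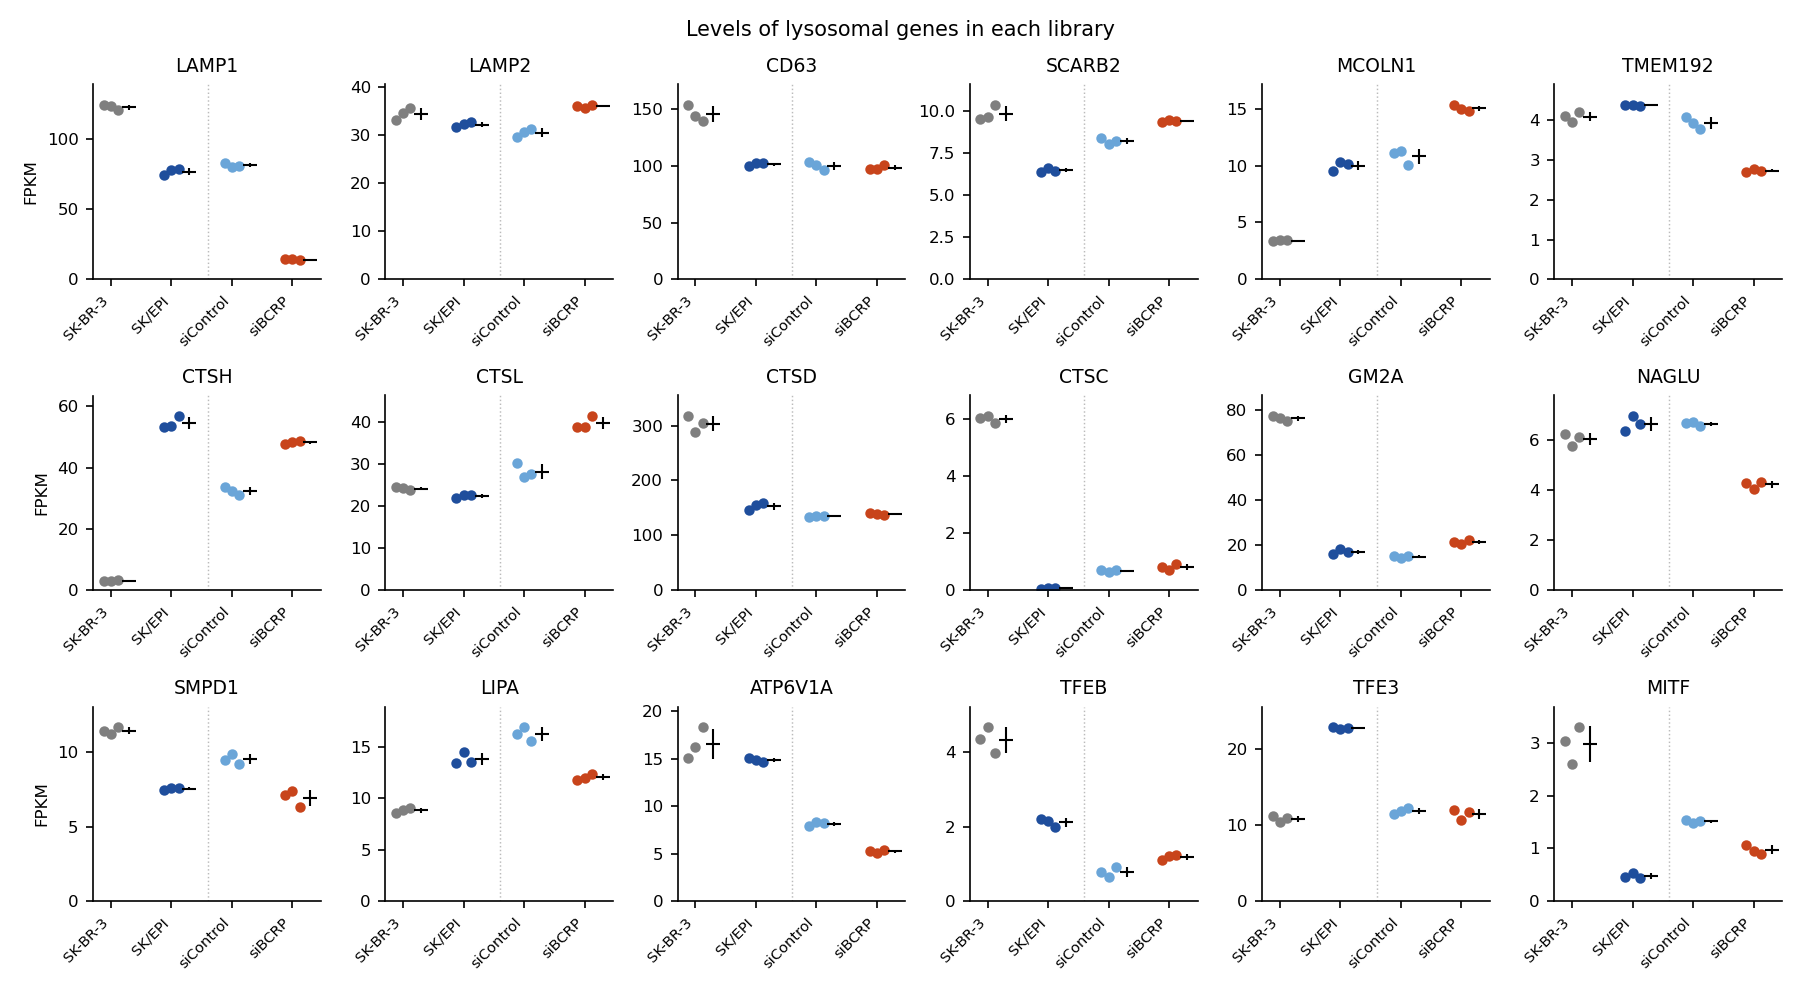
FPKM of 18 lysosomal genes in each of the 12 libraries, on linear axes from 0. Points are single libraries and the black marks are the mean ± SD of 3. The dotted line separates the 2 deposited tables, between which levels were not tested. LAMP1 lies between 13.6 and 14.2 FPKM in the silenced libraries and above 74 FPKM in the other 9, while LAMP2 and CTSH are higher in silenced than in control libraries.

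SK/EPI against SK-BR-3 cells asked how the same genes stood in the resistant line. Here LAMP1 was at 124.0, 123.3 and 120.8 FPKM in SK-BR-3 and at 74.1, 77.8 and 78.3 FPKM in SK/EPI libraries. It fell by 0.67 on the log2 scale (SE 0.033, adjusted p = 6.2e-07, limma), and its mean level dropped by 37.4%. Of the 46 members 45 passed the filter on low genes, and IDUA did not. Of these 16 rose, or 35.6%, where 37.9% of the 15823 genes tested rose, and 21 fell, or 46.7%, where 37% of all tested genes fell. The other 8 did not pass. With the libraries scaled by reads on genes, with or without the mitochondrial chromosome, 21 rose and 18 fell. With limma voom 21 rose and 19 fell, so the balance of rises and falls depends on the scaling. Of all tested genes 42.32%, 43.25% and 43% rose in these settings, and 33.26%, 32.6% and 33.65% fell. The median log2 fold change was -0.066 over the members and 0.0084 over all tested genes, and the median size without sign was 0.41 beside 0.36. The members' median was 0.0060, 0.020 and 0.0027 under these other scalings, so its sign was not stable. The median of all tested genes moved with it, to 0.061, 0.072 and 0.10, and stayed above that of the members each time. The lysosomal genes thus went both ways in the resistant line, from -2.72 to 3.78. The libraries of the 2 groups did not overlap for 41 of the 45 members tested, and for 12291 of the 15823 genes tested.

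Among the membrane genes, LAMP1, CD63 and SCARB2 fell in SK/EPI cells and MCOLN1 rose. CD63 was at 145.8 ± 7.08 in SK-BR-3 and 101.6 ± 1.36 FPKM in SK/EPI cells (SD, n = 3), and SCARB2 at 9.86 ± 0.438 and 6.48 ± 0.114. CD63 and SCARB2 had log2 fold changes of -0.52 and -0.54, beside -0.67 for LAMP1. MCOLN1 rose from 3.36, 3.42 and 3.42 to 9.52, 10.3 and 10.1 FPKM, a log2 fold change of 1.32 (SE 0.046, adjusted p = 7.9e-08, limma). LAMP2 was at 33.1, 34.5 and 35.5 in SK-BR-3 and at 31.6, 32.2 and 32.7 FPKM in SK/EPI libraries. Its log2 fold change of -0.093 (SE 0.035, adjusted p = 0.041, limma) did not pass without SK-BR-3 replicate 2 or 3 or without any 1 of the 3 SK/EPI libraries, where it lay between -0.12 and -0.069, and it was 0.0064 when the libraries were scaled by reads on genes without the mitochondrial chromosome. TMEM192 did not pass (adjusted p = 0.17, limma).

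All 9 proteases passed the test in SK/EPI against SK-BR-3, 5 higher and 4 lower, where 74.9% of all tested genes passed in either direction. The range of all members was set by CTSH and CTSC. CTSH was at 3.01, 2.91 and 3.23 FPKM in SK-BR-3 and at 53.2, 53.5 and 56.8 FPKM in SK/EPI libraries, a 17.9-fold higher mean and a log2 fold change of 3.78 (SE 0.044, adjusted p = 3.3e-10, limma). CTSC, the dipeptidyl peptidase that activates granule proteases (chr11:88293592-88337787, minus strand), was at 6.05, 6.10 and 5.86 FPKM in SK-BR-3 and at 0.0447, 0.0775 and 0.0748 FPKM in SK/EPI libraries. There it had 10 to 16 reads a library, and the log2 fold change of -2.72 (SE 0.052, adjusted p = 3.7e-09, limma) was -5.21 when 0.1 was added to the FPKM in place of 1. CTSD fell from 316.8, 289.2 and 304.0 to 146.2, 155.2 and 158.2 FPKM, a log2 fold change of -0.98 (SE 0.048, adjusted p = 5.9e-07, limma). CTSD shares 41.7% of its exonic bases with AC068580.4 on the same strand, so its reads could have been split. The rises of CTSA and TPP1, an aminopeptidase, were 0.40 and 0.49, and the fall of CTSB, a cysteine protease, was 0.41 on the log2 scale. CTSL had a log2 fold change of -0.11 (adjusted p = 0.014, limma), and it did not pass with the libraries scaled by reads on genes, with the mitochondrial chromosome left out or with limma voom. CTSK and CTSS, cysteine proteases of osteoclasts and antigen-presenting cells, stayed at or under 1.24 FPKM in both groups. The call for CTSK rested on 5 to 18 reads a library, its groups overlapped, and it did not pass without SK-BR-3 replicate 2 or 3 or SK/EPI replicate 2 or 3, with a log2 fold change between 0.15 and 0.29 over the libraries left out in turn.

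Of the 16 hydrolase genes tested, 6 rose, 6 fell and 4 did not pass in SK/EPI cells. GAA, which digests glycogen, was at 12.92, 14.35 and 12.98 FPKM in SK-BR-3 and at 27.3, 28.7 and 28.1 FPKM in SK/EPI libraries, a log2 fold change of 1.01 (SE 0.046, adjusted p = 3.8e-07, limma). NEU1, the lysosomal sialidase, was at 7.21, 7.57 and 6.34 against 14.6, 15.3 and 15.2 FPKM, a log2 fold change of 0.997 (SE 0.060, adjusted p = 2e-06, limma). The means in the resistant line were 2.09-fold higher for GAA and 2.13-fold higher for NEU1. GM2A fell from 77.3, 76.7 and 75.3 to 16.0, 18.1 and 16.9 FPKM, a log2 fold change of -2.11 (SE 0.045, adjusted p = 6e-09, limma), with 2 pseudogene copies in the annotation. GUSB, beta-glucuronidase, fell from 47.7, 48.5 and 45.6 to 16.6, 19.1 and 16.9 FPKM, a log2 fold change of -1.38 (SE 0.055, adjusted p = 1.6e-07, limma), with 12 pseudogene copies in the annotation. Neither gene's groups overlapped, and GUSB was at 19.9 FPKM in both siRNA groups. LIPA rose by 0.59 and SMPD1 fell by 0.54 on the log2 scale. PSAP was the most abundant member in all 4 groups, at 804.1, 823.7 and 794.6 FPKM in SK-BR-3, 698.4, 741.6 and 726.0 in SK/EPI, 764.2, 752.0 and 738.0 in SK/EPI-siControl and 690.1, 692.6 and 700.9 in SK/EPI-siBCRP libraries. Its fall of 0.16 on the log2 scale in SK/EPI (adjusted p = 0.022, limma) did not pass without SK-BR-3 replicate 2 or SK/EPI replicate 3, at between -0.18 and -0.14 over the libraries left out in turn, and that of 0.11 after silencing (adjusted p = 0.015, limma) did not pass without SK/EPI-siBCRP replicate 2 or SK/EPI-siControl replicate 2, at between -0.13 and -0.10. IDUA was the least abundant, at 0, 0.0554 and 0.0263 FPKM in SK-BR-3 and 0.0255, 0.0830 and 0.0400 in SK/EPI libraries. It was at 0.241, 0.184 and 0.291 FPKM in SK/EPI-siControl and 0.308, 0.156 and 0.259 in SK/EPI-siBCRP libraries, with at most 24 reads in any library.

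The V-ATPase subunits had log2 fold changes between -0.40 and 0.52 in SK/EPI against SK-BR-3, and none changed by 1 or more. Of the 9, 2 rose (ATP6V1C1 by 0.52 and ATP6V1E1 by 0.33), 4 fell (ATP6V0E1, ATP6V1B2, ATP6V0D1 and ATP6AP1 by 0.40, 0.35, 0.29 and 0.22) and 3 did not pass. ATP6V1A was among the latter, at 15.1, 16.2 and 18.3 FPKM in SK-BR-3 and 15.1, 14.9 and 14.6 FPKM in SK/EPI libraries (adjusted p = 0.072, limma).

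The TFEB family diverged in the resistant line. TFEB fell from 4.36, 4.68 and 3.98 to 2.22, 2.17 and 1.99 FPKM, a log2 fold change of -0.77 (SE 0.067, adjusted p = 1.6e-05, limma). MITF fell from 3.03, 2.61 and 3.29 to 0.462, 0.532 and 0.439 FPKM, a log2 fold change of -1.42 (SE 0.075, adjusted p = 8.4e-07, limma). TFE3 rose from 11.2, 10.4 and 10.9 to 22.8, 22.6 and 22.7 FPKM, a log2 fold change of 1.00 (SE 0.036, adjusted p = 9.5e-08, limma). Adding 1 to the FPKM understates the change of low genes. By mean level TFEB was 2.04-fold and MITF 6.23-fold lower, and TFE3 was 2.10-fold higher. With 0.1 added in place of 1, the log2 fold changes were -0.99, -2.41 and 1.06. None of the 3 had overlapping groups, as was so for 12291 of the 15823 genes tested, and TFE3 had the highest level of the family in both lines. SQSTM1 rose from 44.6, 40.9 and 40.7 to 64.2, 67.1 and 67.5 FPKM, a log2 fold change of 0.64 (SE 0.043, adjusted p = 3.6e-06, limma). It shares 20.7% of its exonic bases with MRNIP on the opposite strand, and the kit did not mark strand. GABARAPL1 fell from 11.8, 11.6 and 10.8 to 6.01, 6.20 and 5.97 FPKM, a log2 fold change of -0.81 (SE 0.045, adjusted p = 1.2e-06, limma).

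Set side by side, 7 members rose in both comparisons, namely ATP6V1C1, ATP6V1E1, CTSA, CTSH, GLA, MCOLN1 and SQSTM1. A further 7 fell in both, namely ATP6V1B2, CTSB, GABARAPL1, LAMP1, MITF, PSAP and SMPD1. Another 7 were lower in SK/EPI cells and higher after silencing (ATP6AP1, CTSL, GM2A, LAMP2, MANBA, SCARB2 and TFEB), and LIPA alone was higher in SK/EPI cells and lower after silencing. ARSB and GLB1 passed in neither comparison, and IDUA was tested only after silencing, where it did not pass. The members called in SK/EPI cells only were ASAH1, CTSK, CTSS, GAA, IDS, NEU1, TFE3 and TPP1, which rose, and ATP6V0D1, ATP6V0E1, CD63, CTSC, CTSD, GUSB and HEXA, which fell. Those called after silencing only were ATP6V1H, which rose, and ARSA, ATP6V1A, ATP6V1D, NAGLU and TMEM192, which fell. The calls of ASAH1, CTSK, LAMP2 and PSAP in SK/EPI cells, and of ATP6V1D, ATP6V1H, CTSB, MANBA, PSAP and SQSTM1 after silencing, were each lost when 1 library or another was left out. The shares of all tested genes with the same pairs of calls were not counted, so these lists only describe the members. Whether an effect differed between the comparisons was not tested.

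SK/EPI and SK/EPI-siControl cells stand in different tables, so their levels are given beside each other without a test. LAMP1 was at 76.8 ± 2.29 and 81.3 ± 1.27 FPKM (SD, n = 3). Means more than 1.5-fold apart were seen for 10 of the 46 members. The share of all genes beyond this limit was not counted, so 10 cannot be called many or few. TFE3 was at 22.7 and 11.8 FPKM, ATP6V1A at 14.9 and 8.12, CTSH at 54.5 and 32.3, TFEB at 2.13 and 0.783, and ARSB at 2.13 and 1.29 FPKM, each higher in SK/EPI cells. GABARAPL1 was at 6.06 and 12.7 FPKM, MITF at 0.477 and 1.51, CTSS at 1.21 and 1.89, CTSC at 0.0657 and 0.678, and IDUA at 0.0495 and 0.239 FPKM, each lower in SK/EPI cells. Transfection, culture and table differ together between these groups and cannot be told apart.

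The genes around LAMP1 on chromosome 13 were examined next, as LAMP1 fell in both comparisons. Of 12 protein-coding genes tested that lie wholly or partly within 500 kb of it, 9 fell and 2 rose in SK/EPI against SK-BR-3, with a median log2 fold change of -0.61, where 37% of all tested genes fell and 37.9% rose. Over all 23 tested neighbours of any type, 17 fell and 3 rose. The nearest protein-coding starts upstream, at -88.53 and -89.05 kb from that of LAMP1, were those of PCID2 and CUL4A, which fell by 0.91 and 1.21 on the log2 scale. Downstream, GRTP1, 66.9 kb away, fell by 0.64, and DCUN1D2, TMCO3 and TFDP1 fell by 1.43, 2.05 and 1.77. In the resistant line LAMP1, with a fall of 0.67, was thus 1 of several genes at this locus that fell. After BCRP silencing none of the 12 fell, 4 rose, and their median was 0.049. Over all 21 tested neighbours of any type, 3 fell and 6 rose, with a median of -0.0039, beside 18.7% and 19.4% of all tested genes. The 3 that fell, AL356740.2, AL137002.2 and AL442125.1, are not protein coding and had log2 fold changes of -0.59, -0.31 and -0.19. CUL4A, PCID2 and GRTP1 had log2 fold changes of 0.063, -0.0039 and 0.086 there and did not pass (adjusted p = 0.10, 0.94 and 0.12, limma).

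**Figure D3:**
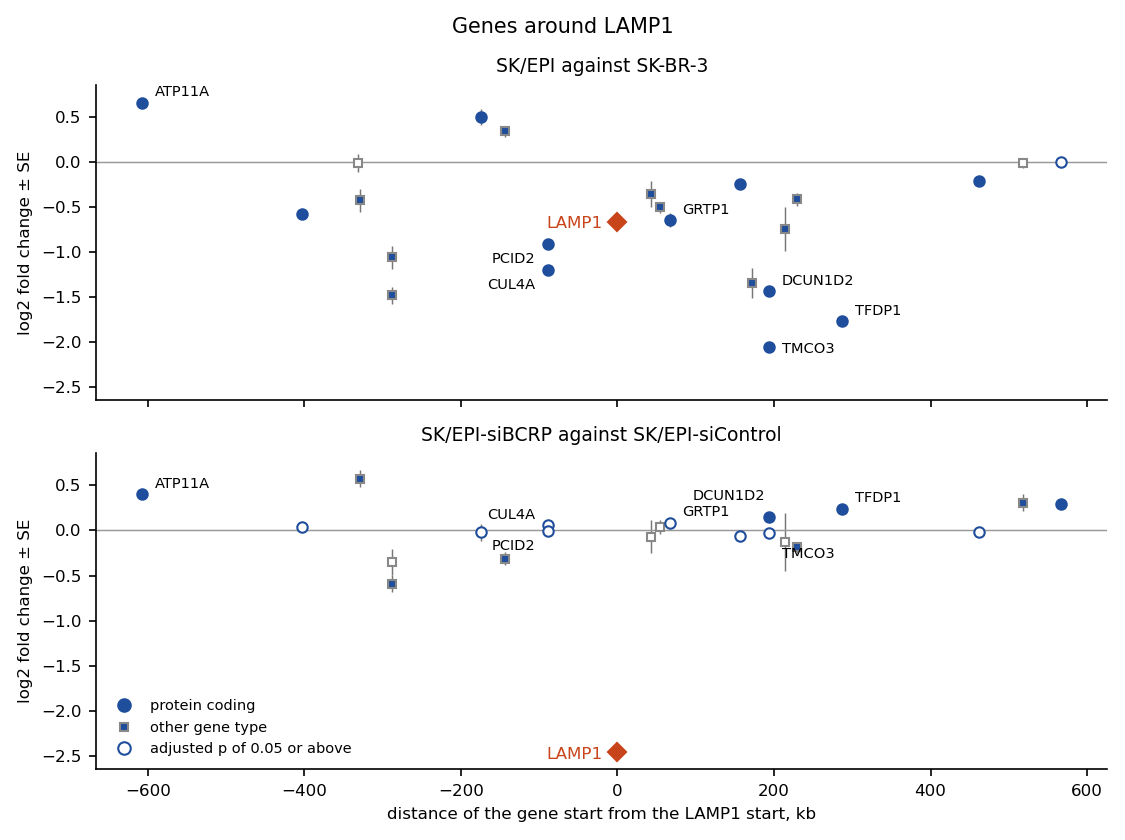
Log2 fold change with its standard error against the distance of each gene's start from that of LAMP1, in kb, for tested genes within 500 kb of LAMP1 (circles protein coding, squares other types, filled where the adjusted p was under 0.05). In SK/EPI against SK-BR-3 (top) the neighbours of LAMP1 are mostly below 0, down to -2.05 for TMCO3. In SK/EPI-siBCRP against SK/EPI-siControl (bottom) LAMP1 is at -2.46 and its neighbours lie between -0.59 (AL356740.2) and 0.58 (MCF2L-AS1).

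The 7 bases CTGGTTA, the complement of bases 2 to 8 of the lower siRNA strand, were searched in the 3′ UTRs of 1 transcript a gene. They were found in 5 of the 46 members, namely LAMP1, TMEM192, ATP6V1A, MITF and MANBA, with 2 copies in TMEM192 and 1 in each of the others. Of these 5 members 4 fell after silencing and MANBA rose, with a median log2 fold change of -0.40. Of the 41 members without the bases in the 3′ UTR 9 fell and 14 rose, with a median of 0.057. Among these, CTSA, GLB1 and SMPD1 hold the bases elsewhere in the transcript. Of them CTSA rose, GLB1 did not pass and SMPD1 fell. Over all 12927 tested genes with such a transcript, 8.50% held the bases in the 3′ UTR. Of the genes that held them 43.8% fell and 10.5% rose, and of those that did not 17.8% fell and 23.9% rose. All of these fold changes are relative to cells with the control siRNA, whose sequence was not used here and whose own matches were not searched. In SK/EPI against SK-BR-3, where no siRNA was used, the shares that fell were 40.9% and 39.9%. For the upper strand's 7 bases, AGTATCC, the shares that fell after silencing were 26.5% with and 19.6% without them. Genes with the bases had longer 3′ UTRs, with a median of 3101 against 918.5 bases, and among UTRs of 1000 to 3000 bases the shares that fell were 46.4% and 19.7%. The ABCG2 transcript holds the 7 bases in its coding sequence and not in its 3′ UTR. A match is a description of the letters, and whether it had a part in the fall of LAMP1 was not tested.

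**Figure D4:**
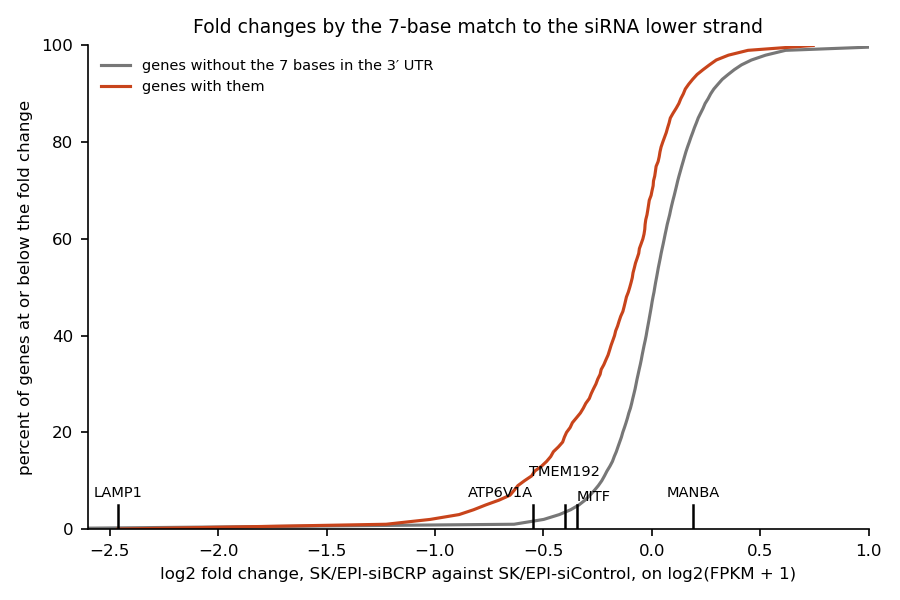
Percent of genes at or below each log2 fold change of SK/EPI-siBCRP against SK/EPI-siControl, for 1099 genes with the 7-base complement of the lower siRNA strand in their 3′ UTR (red) and 11828 genes without it (grey). Ticks at the foot mark the 5 lysosomal genes that hold it. The red curve lies to the left of the grey one, with a median of -0.10 against 0.014.

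Promoter windows from 250 bases before to 50 after a start site were listed in RefSeq for 31 of the 46 members, with 49 windows. CACGTG, which reads the same on both strands, was present for 9 of the 31 members (29.03%), beside 8.77% of all 27305 genes with a window. These 9 were LAMP1, CD63, MCOLN1, CTSA, CTSD, GAA, ARSB, NEU1 and ATP6V0D1. The longer form with T before and A after the core was in 5 of the 49 members' windows, or 10.2%, beside 0.980% of all 35116 windows. With 6 copies, LAMP1 had the only window of all those listed with 6 or more. The 9 members with the motif did not move as a group. In SK/EPI cells 4 rose (MCOLN1, GAA, NEU1 and CTSA), 4 fell (CTSD, LAMP1, CD63 and ATP6V0D1) and ARSB did not pass. After silencing MCOLN1 and CTSA rose, LAMP1 fell and the other 6 did not pass. Of the 22 members with a window but no motif, 8 rose and 10 fell in SK/EPI cells. There 37.9% of all tested genes rose and 37% fell. After silencing 9 of these 22 rose and 6 fell, beside 19.4% and 18.7% of all tested genes.

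Beyond these genes, 142 other lysosomal genes were examined from a wider list of membrane, protease, hydrolase, V-ATPase, sorting and mTORC1 or autophagy genes. After silencing, 133 were tested, of which 42 rose (31.6%) and 25 fell (18.8%), where 19.4% of all tested genes rose and 18.7% fell. The median log2 fold change was 0.039, and the share that fell was close to that of all genes. On log2(FPKM + 1) none changed by 1 or more, so on this scale the size of the LAMP1 change was not matched in this wider list either. Adding 1 understates the change of low genes, and the mean of ARSK was 2.02-fold higher after silencing. On this scale the largest rises were of ARSK, a sulfatase, OSTM1, the partner of the chloride channel CLCN7, and SLC17A5, the sialic acid exporter. Their levels went from 1.71 ± 0.0947 to 3.46 ± 0.0759, from 2.77 ± 0.272 to 4.62 ± 0.282 and from 8.09 ± 0.243 to 11.97 ± 1.24 FPKM (SD, n = 3). On the log2 scale these rises were 0.72, 0.58 and 0.51. Falls on this scale were largest for ATP6V1F, a V-ATPase subunit, RRAGA, a Rag GTPase that brings mTORC1 to the lysosome, and SLC29A3, a nucleoside transporter. They went from 163.6 ± 3.49 to 92.4 ± 2.40, from 51.8 ± 1.74 to 30.1 ± 1.44 and from 7.06 ± 0.211 to 4.10 ± 0.208 FPKM, with log2 fold changes of -0.82, -0.77 and -0.66. The ratio of levels was larger for CTSO, a protease, whose mean was 2.14-fold lower (1.55 ± 0.255 to 0.724 ± 0.112 FPKM, log2 fold change -0.56). CTSO was chosen after its values were seen. ATP6V1F shares 23.7% of its exonic bases with KCP on the opposite strand, and SLC29A3 shares 13.3% with AL359183.1 on the same strand.

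In SK/EPI against SK-BR-3, 129 of the 142 were tested, of which 44 rose (34.1%) and 63 fell (48.8%), where 37.9% of all tested genes rose and 37% fell. The median was -0.084. With the libraries scaled by reads on genes 50 rose and 54 fell, and without the mitochondrial chromosome 52 rose and 54 fell. With limma voom 52 rose and 55 fell. Here too the balance moved with the scaling, as did that of all tested genes. Rises made up 48.1%, 49.1% and 48.6% of this list's calls under these settings, beside 56.0%, 57.0% and 56.1% over all tested genes. In the main fit these shares were 41.1% and 50.6%. The largest rises were of ATP6V1C2, a V-ATPase subunit (2.12 ± 0.0746 to 16.5 ± 0.289 FPKM, log2 fold change 2.49), SLC17A5 (1.91) and LAPTM4B, a lysosomal membrane protein (26.5 ± 0.252 to 100.6 ± 2.91 FPKM, 1.89). This order holds on log2(FPKM + 1), which understates the change of low genes. LAMP3, a LAMP family member, had 2 to 4 reads a library in SK-BR-3 and 156 to 210 in SK/EPI cells (0.0445 ± 0.0137 to 2.57 ± 0.278 FPKM), and its log2 fold change of 1.77 ranked below these although the ratio of its levels was higher. It was chosen after its values were seen. ATP6V1C2 shares 29.7% of its exonic bases with PDIA6 on the opposite strand. Falls were largest for MAP1LC3A, an LC3 protein of autophagosomes (17.2 ± 0.932 to 0.129 ± 0.0879 FPKM, -4.01), PPT1, a thioesterase (291.2 ± 3.88 to 52.4 ± 1.40 FPKM, -2.45) and SORT1, a sorting receptor (44.8 ± 2.73 to 8.19 ± 0.272 FPKM, -2.32). PPT1 shares 23.4% of its exonic bases with CAP1 on the opposite strand.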

How the data were processed

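Poly-A RNA of 12 libraries was sequenced by the authors with a kit that does not mark strand. The submitters' processing notes list HISAT2 2.0.5, featureCounts 1.5.0-p3 and DESeq2 1.16.1. The authors deposited 2 tables without raw counts, whose values were read as FPKM. Each value times the merged exon length of the gene (GENCODE 29, GRCh38) came out as whole reads after division by 1 constant per library (within 0.01 for 100% of values), so reads per gene could be recovered. They came to between 89.5% and 101% of the total the authors had divided by. Reads could have been shared or split where exons of 2 genes overlap on either strand, as for CTSD, NAGLU and SQSTM1. Overlaps of 5% or more of exonic bases were also held by ATP6V1D, CD63, CTSA, GABARAPL1, GLB1, HEXA, IDS, IDUA, MANBA and TPP1. Within each table, log2(FPKM + 1) was fitted by group with limma 3.58.1 (R 4.3.3, trended variance), with Benjamini-Hochberg adjustment over all tested genes and a threshold of 0.05. A gene was tested where 3 or more libraries had 10 or more reads, scaled to the median depth, and all libraries together 15 or more. The fit was also run on simulated counts, and no result here rests on that run. Only genes with a mean of 1 FPKM or more were changed in them, so changes of lower genes were not covered. Sources do not say whether the 3 libraries of a group came from separate cultures, so p-values measure the spread between these libraries, which may be technical.

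The members and all lists were chosen with earlier results of these data known, among them the fall of LAMP1, whose p-value is no independent support. Values for every library are given for LAMP1, LAMP2, the TFEB family, the most and least abundant member, and in each comparison the 6 called members with the largest rise and fall. The wider list is represented by its 3 largest in each direction. Sequences come from the study's supplement (siRNA), GENCODE 29 transcripts and RefSeq promoters. Searches were descriptive. Other filters, pseudocounts, scalings, a replicate block, limma voom on recovered reads and each library left out were tried. The scalings of the wider list were added after its values were seen.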

Additional observations from a re-analysis of the deposited data

How the results depend on the processing

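The fall of LAMP1 after silencing passed under every alternative run, at between -2.56 and -2.46 under other filters, pseudocount, scalings, test and the replicate block, and from -2.474 to -2.445 when single libraries were dropped. When a change of 1 or more on log2(FPKM + 1) was required as well, 4 members rose and 4 fell in SK/EPI cells, and 0 rose and 1, LAMP1, fell after silencing. These counts stayed within 1.5 times of the reported ones under all other alternatives. With each library left out, 14 to 16 rose and 19 to 22 fell in SK/EPI cells, and 12 to 15 rose and 10 to 13 fell after silencing. Deviations of same-numbered libraries had correlations between -0.049 and -0.0020 in the first comparison, over 12029 genes. In the second they lay between 0.0092 and 0.055, over 12439 genes. With 3 libraries a group, such values cannot show whether a number marks a shared day or batch, and the labels do not say. The main fit left the number out. With the replicate number as a block, 15 rose and 21 fell in SK/EPI cells and 14 rose and 11 fell after silencing, and the calls of CTSK in the first and of CTSB, PSAP and SQSTM1 in the second comparison were lost. One value turned its direction, that of LAMP2 in SK/EPI cells, at 0.0064 with the mitochondrial chromosome left out of the scaling. Scaling by reads on genes, or voom, or leaving out mitochondrial genes ended the calls of CTSL, LAMP2 or PSAP in SK/EPI cells, and moved the median of all genes by at most 0.094 on the log2 scale. Of 37 members called in SK/EPI cells, 31 passed under every alternative that gave them a value, the requirement on size aside, and of 28 called after silencing 21 did. The calls lost were of ASAH1, CTSK, CTSL, CTSS, LAMP2 and PSAP, and of ATP6V1D, ATP6V1H, CTSB, MANBA, PSAP, SQSTM1 and TFEB. For IDUA, CTSK and CTSC in SK/EPI cells, with at most 18 reads in a library, depth limits the precision of the level. The causes of the lost calls were not tested.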
